A study of Mus musculus with 8 samples.

Results

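The genes described here are 45 genes of autophagy and of the lysosome, followed in the visual (occipital) cortex of fasted and fed mice. They were taken by symbol from a fixed list, and 45 of 45 were found among the 24344 distinct symbols of the expression table. The mice were C57BL/6J at postnatal day 35, with no genetic change named. One group had been kept without food for 48 h and the other had eaten ad libitum, and RNA-seq was done on cortex homogenate, with 4 libraries in each group. The labels do not say whether each library is 1 mouse or a pool, so p-values measure the spread between these libraries, which may in part be technical. The comparison asks which transcripts differ after the fast, in a series that concerns histone beta-hydroxybutyrylation, a mark made from a ketone body.

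Autophagy is the enclosure of cytoplasm in a double membrane, the autophagosome, which fuses with the lysosome, where hydrolases break the content down. A kinase complex around ULK1 starts the membrane, a lipid kinase complex around Beclin 1 marks it, a conjugation system attaches small proteins of the ATG8 family to it, and receptors bind cargo to these. In many tissues lack of food starts autophagy, largely through changes in protein phosphorylation, and the transcription factors TFEB and TFE3 can raise the transcription of lysosomal and autophagy genes. Neurons depend on a basal level of this turnover.

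Values are FPKM, fragments scaled by transcript length and by library depth. Depth, as estimated from the values, ran from 17800000 to 21800000 fragments, and 12217 to 12440 genes reached 1 FPKM in a library. Even Tfeb, the member with the lowest level, stood on at least 62.4 estimated fragments in each library. Libraries also differed in ways that the groups do not explain. FPKM totals lay between 254085.8 and 640016.8. The highest was that of ad libitum replicate 2, where the short gene Mir684-1 was listed at 40326.4 FPKM. Mir6363 was listed at 32386.9 FPKM in ad libitum replicate 3 and Mir703 at 17728.7 FPKM in fasted replicate 2. Ad libitum replicate 3 held both Xist, a transcript of female cells, at 32.2 FPKM and the Y-linked Ddx3y at 5.67 FPKM, while each other library had 1 of the pair near 0. Xist was at 74.5 and 77.5 FPKM in ad libitum replicates 2 and 4 and at 66.1 and 62.9 in fasted replicates 2 and 4. Ddx3y was at 10.5 FPKM in ad libitum replicate 1 and at 12.2 and 14.4 in fasted replicates 1 and 3. By these genes each group held both sexes, not in the same mix, and ad libitum replicate 3 held transcripts of both. Whether that came from a pool or from mixed libraries cannot be told. Sex was not a term in the main fit. In the fit over all genes, 3198 of 12377 tested genes were called, 1183 higher and 2015 lower in fasted cortex (limma on log2(FPKM + 1), Benjamini-Hochberg adjusted p under 0.05). With libraries scaled by the median ratio of their genes the split was 1758 higher and 1936 lower. Equal-sum scaling gave 1587 and 532, and it moved the median log2 change of all genes from -0.024 to 0.085.

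After 48 h without food the members' median absolute log2 change was 0.11, and that of all tested genes 0.12. All 45 passed the filter on low values (at least 1 FPKM in at least 4 libraries), 2 rose (Atg13 and Sqstm1) and 5 fell (Ulk2, Atg12, Gabarap, Ctsz and Hexa), by limma on log2(FPKM + 1) with Benjamini-Hochberg adjustment over all tested genes. That is 15.6% of the members, where 25.8% of all tested genes were called, 9.56% as higher and 16.3% as lower. Hexa, which encodes the alpha subunit of the lysosomal enzyme beta-hexosaminidase, was the 1 member with a log2 change of 0.5 or more in size, a size that 3.09% of tested genes reached. The groups did not overlap for 11 members (24.4%, against 27.6% of all tested genes). The median log2 change was -0.011 over the members and -0.024 over all tested genes.

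The count of members called depended on the scaling and on single libraries. With the replicate number as a block 9 members were higher and 8 lower, 37.8% of the members, where 36.4% of all tested genes were called. After median-ratio scaling 11 were higher and 6 lower, again 37.8%, where 29.9% of all tested genes were called. GC and length offsets gave 10 and 5, where 32.4% of all tested genes were called, and equal-sum scaling 5 and 1, where 17.1% were. The members higher after median-ratio scaling were Atg13, Atg16l1, Atg9a, Ctsl, Gaa, Optn, Psap, Sqstm1, Tfe3, Ulk1 and Wipi2. With the block and with median-ratio scaling all 7 members called on the deposited values were called again. Without ad libitum replicate 3 0 were higher and 4 lower, and without ad libitum replicate 4 it was 2 and 10. The share called among the members was thus below that of all genes on the deposited values. It was also below with equal-sum scaling (13.3% against 17.1%) and in each fit that left out 1 library. With the block, median-ratio scaling or the offsets it was not below.

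**Figure D1:**
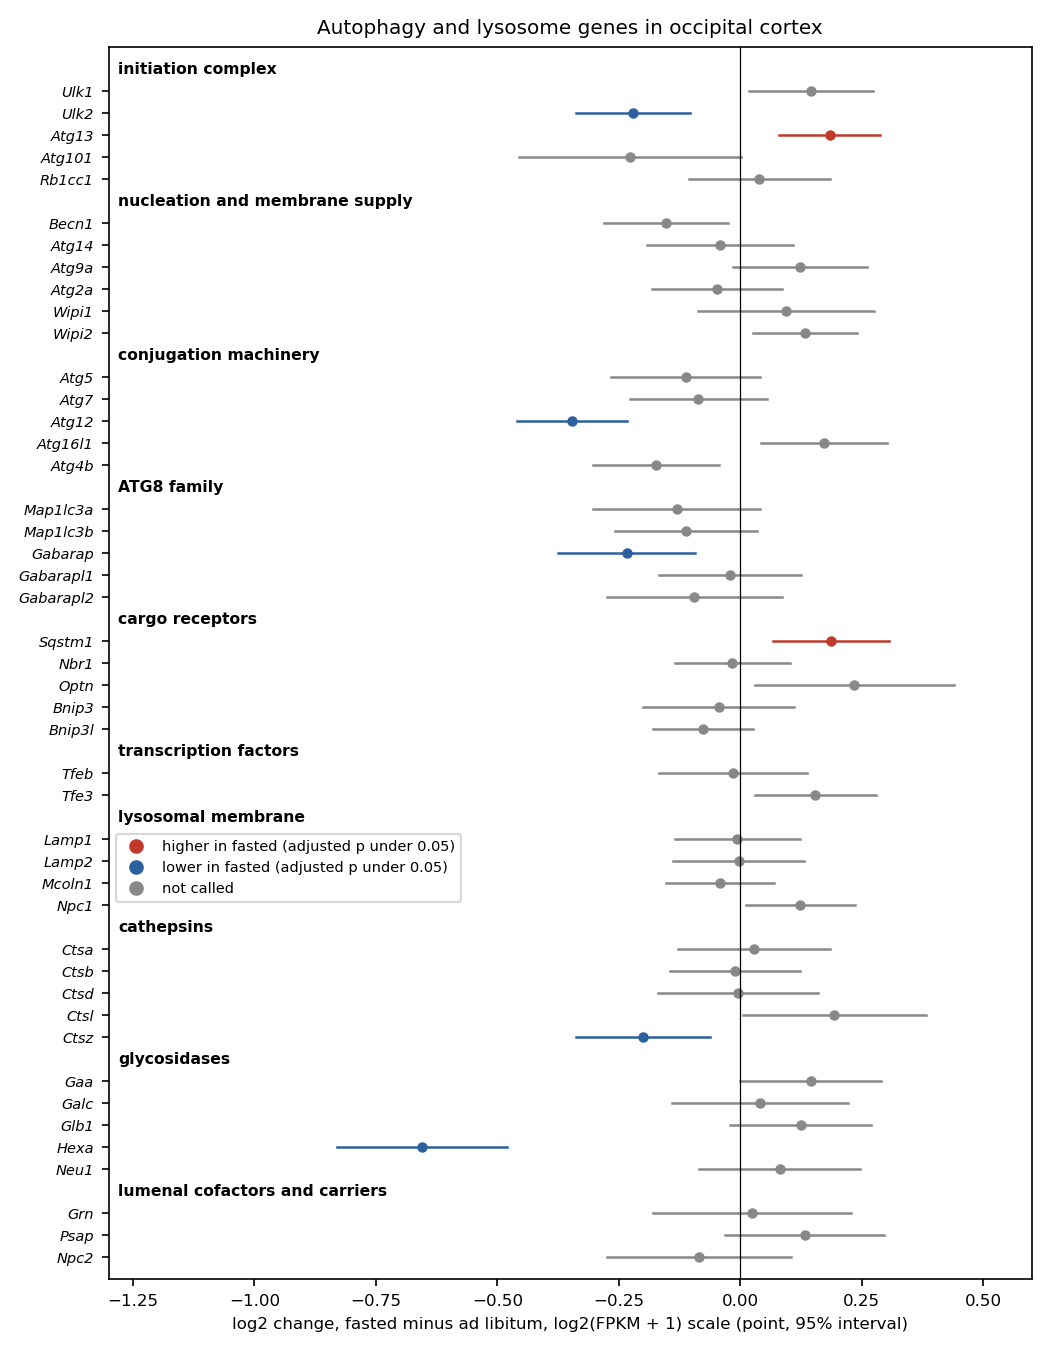
Log2 change of each of the 45 members on the log2(FPKM + 1) scale (x axis, fasted minus ad libitum, 4 libraries each), grouped by role, with 95% intervals from limma. Hexa, at -0.66, lies apart from the other 44, whose changes run from -0.35 (Atg12) to 0.23 (Optn).

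The initiation complex joins the kinases ULK1 and ULK2 with their partners ATG13, ATG101 and FIP200, the last encoded by Rb1cc1. Atg13 (chromosome 2, 91674618 to 91710576 in GRCm38) was at 18.6, 18.98, 17.7 and 17.8 FPKM in ad libitum replicates 1 to 4 and at 21.5, 21.1, 20.6 and 20.4 FPKM in the fasted ones. Every fasted library lay above every fed one, and Atg13 rose by 0.18 on the log2 scale (SE 0.047, limma adjusted p = 0.0155). This call ended without ad libitum replicate 3 (limma adjusted p = 0.0552).

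Ulk2 (chromosome 11, 61775649 to 61855073) moved the other way. It was at 17.2, 18.8, 19.4 and 19.1 FPKM in fed cortex and at 15.7, 15.1, 16.5 and 16.1 FPKM in fasted cortex, without overlap. It fell by 0.22 on the log2 scale (SE 0.054, limma adjusted p = 0.0120), a call that ended with equal-sum scaling (limma adjusted p = 0.555). Its paralog Ulk1 was at 13.3, 14.4, 13.2 and 12.8 FPKM fed and 16.2, 15.1, 14.3 and 14.3 FPKM fasted, so that a fed library lay among the fasted ones. The log2 change of Ulk1, 0.15, did not pass (limma adjusted p = 0.0867), and did with the replicate block (limma adjusted p = 0.0412).

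Atg101 had a log2 change of -0.23 with a wide 95% interval, -0.46 to 0.0004 (limma adjusted p = 0.130, and 0.0389 with the replicate block). Rb1cc1 was at 14.8 FPKM ± 1.08 fed and 15.2 ± 1.07 fasted (SD, n = 4 each), and its 95% interval was -0.11 to 0.18.

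The ratio of Ulk1 to Ulk2 can be read within a library, where a scaling factor largely cancels. The log2 ratio was -0.35, -0.36, -0.52 and -0.55 in fed cortex and 0.043, -0.0030, -0.20 and -0.16 in fasted cortex, a shift of 0.37 with no overlap. Among the 8 pairs of related members compared, it was the 1 pair whose groups did not overlap. Its exact two-sided permutation p was 0.0286, the smallest that 4 against 4 can give, and 0.229 adjusted over the 8 pairs, so that 1 pair at this p cannot pass alone. Between libraries of the same replicate number the shifts were 0.39, 0.36, 0.32 and 0.39. The exact two-sided sign-flip permutation test on these gave p = 0.125, the smallest that 4 numbers allow, and 0.333 adjusted over the 8 pairs.

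Nucleation and membrane supply is the work of Beclin 1 (Becn1) and ATG14 in the lipid kinase complex, of the membrane protein ATG9A with the lipid transfer protein ATG2A, and of the phosphoinositide-binding proteins WIPI1 and WIPI2. Of these 6 genes 0 were called by limma, and 2 had an unadjusted p of under 0.05. Becn1 was at 36.3, 35.1, 36.5 and 31.9 FPKM fed and 33.6, 29.99, 30.6 and 30.9 fasted, a log2 change of -0.15 (limma adjusted p = 0.0746). Wipi2 was at 20.01, 20.4, 19.2 and 18.5 FPKM fed and 21.6, 21.2, 22.1 and 21.1 fasted, without overlap and with a log2 change of 0.13 (limma adjusted p = 0.0663). With the replicate block both passed, at limma adjusted p = 0.0246 and 0.0380. Wipi1, its paralog, was at 5.90 FPKM ± 0.748 fed and 6.34 ± 0.442 fasted (SD, n = 4 each). The log2 ratio of Wipi1 to Wipi2 shifted by -0.039 (exact two-sided permutation p = 0.6, adjusted p = 0.960 over the 8 pairs).

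The conjugation machinery links ATG12 to ATG5 with the help of the activating enzyme ATG7. Together with ATG16L1 the conjugate places ATG8 proteins on the membrane, after the protease ATG4B has trimmed them. Atg12 was at 24.0, 23.0, 22.7 and 21.8 FPKM in fed cortex and 18.7, 16.9, 18.1 and 17.5 FPKM in fasted cortex. The groups stood well apart, and Atg12 fell by 0.35 on the log2 scale (SE 0.052, limma adjusted p = 9.77e-04). It was called in each alternative except equal-sum scaling (limma adjusted p = 0.134).

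Atg4b and Atg16l1 lay just outside the threshold on opposite sides of 0. Atg4b was at 14.5, 14.4, 13.5 and 12.6 FPKM fed and 12.6, 12.5, 11.7 and 11.4 fasted, a log2 change of -0.17 (limma adjusted p = 0.0504, and 0.0129 with the replicate block). Atg16l1 was at 12.7, 12.3, 12.2 and 10.7 FPKM fed and 13.8, 13.2, 14.2 and 13.2 fasted, a log2 change of 0.17 (limma adjusted p = 0.0519, and 0.0211 with the replicate block). Atg5 and Atg7, at 5.36 to 5.99 FPKM in the group means, had log2 changes of -0.11 and -0.087 and were called in 0 of 20 alternatives.

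The ATG8 family holds the LC3 proteins (Map1lc3a, Map1lc3b) and the GABARAP proteins, small ubiquitin-like proteins that are attached to the lipid of the growing membrane and bind cargo receptors. Gabarapl1 was the most abundant of the 5, at 274.5 FPKM ± 18.8 fed and 270.2 ± 12.95 fasted (SD, n = 4 each), higher than 99.2% of tested genes. The other 4 ran from 64.7 to 95.9 FPKM in the group means. Gabarap fell, from 98.4, 103.1, 93.6 and 88.7 FPKM to 88.1, 82.2, 77.0 and 78.4 FPKM. Its highest fasted library was just below its lowest fed one, and the log2 change was -0.23 (SE 0.064, limma adjusted p = 0.0209). The call ended when any of ad libitum replicates 1 and 2 and fasted replicates 3 and 4 was left out (limma adjusted p from 0.0527 to 0.0651) and with equal-sum scaling (limma adjusted p = 0.494).

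**Figure D2:**
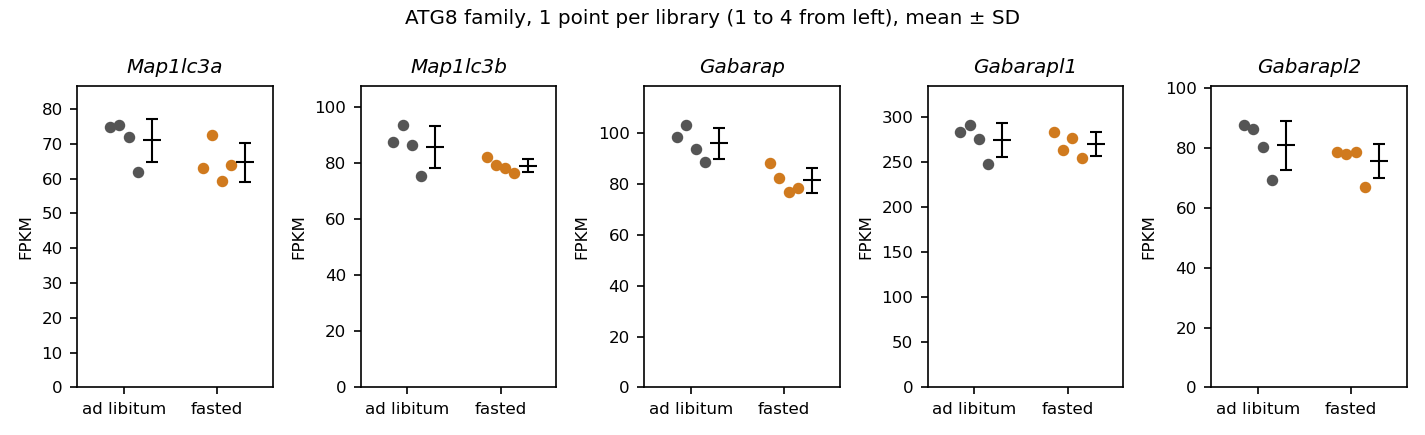
FPKM (y axis, from 0) of the 5 ATG8 family genes in each library, 4 ad libitum and 4 fasted, with mean and SD. Gabarap, from 88.7 to 103.1 FPKM fed and from 77.0 to 88.1 FPKM fasted, is the 1 gene of the 5 whose groups do not overlap.

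Map1lc3a was at 74.8, 75.3, 72.0 and 61.9 FPKM fed and 63.0, 72.5, 59.3 and 64.0 fasted. Map1lc3b was at 87.7, 93.6, 86.6 and 75.6 FPKM fed and 82.3, 79.5, 78.3 and 76.6 fasted. For Map1lc3a ad libitum replicates 3 and 4 lay within the fasted range. For Map1lc3b ad libitum replicate 4 lay below every fasted library. The log2 changes of -0.13 and -0.11 did not pass (limma adjusted p = 0.240 and 0.236). The 2 genes did pass once ad libitum replicate 4 was left out, at limma adjusted p = 0.0405 and 0.0271. Gabarapl2 had a log2 change of -0.094 and Gabarapl1 of -0.021, with 95% intervals from -0.27 to 0.085 and from -0.17 to 0.12. Neither the ratio of Map1lc3a to Map1lc3b nor that of Gabarapl1 to Gabarapl2 passed, with shifts of -0.019 and 0.073 (exact two-sided permutation p = 0.857 and 0.2, adjusted p = 0.980 and 0.4 over the 8 pairs).

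The cargo receptors bind ubiquitin or an organelle with one part and ATG8 proteins with another. Sqstm1, which encodes p62, was at 144.4, 148.7, 141.4 and 132.2 FPKM in fed cortex and at 160.8, 162.6, 163.7 and 157.4 FPKM in fasted cortex. All fasted libraries lay above all fed ones, and Sqstm1 rose by 0.19 on the log2 scale (SE 0.054, limma adjusted p = 0.0272). The call ended without ad libitum replicate 3 or fasted replicate 1, 2 or 3 (limma adjusted p from 0.0541 to 0.0758), and the change was 0.15 to 0.31 over all alternatives.

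Optn, which encodes optineurin, a receptor for mitochondria and bacteria, had the largest positive log2 change of the members, 0.23, with fed values from 4.76 to 6.20 FPKM and fasted values from 5.54 to 7.51 FPKM. The groups overlapped and it did not pass (limma adjusted p = 0.0857, and 0.0304 with the replicate block). Nbr1, a receptor related to p62, was at 27.5 FPKM ± 1.2 and 27.2 ± 1.39 (SD, n = 4 each), with a 95% interval of -0.13 to 0.10.

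Bnip3 and Bnip3l encode receptors on the outer mitochondrial membrane. Bnip3 was at 46.6, 45.5, 44.5 and 42.7 FPKM fed and at 47.5, 47.4, 40.2 and 39.3 fasted, so that the fasted libraries lay on both sides of the fed ones. Bnip3l was at 32.1, 31.9, 32.8 and 32.0 FPKM fed and 30.1, 29.5, 32.2 and 30.1 fasted. Neither passed, at log2 changes of -0.045 and -0.077 (limma adjusted p = 0.674 and 0.245), and their ratio shifted by 0.033 (exact two-sided permutation p = 0.743, adjusted p = 0.980 over the 8 pairs).

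**Figure D3:**
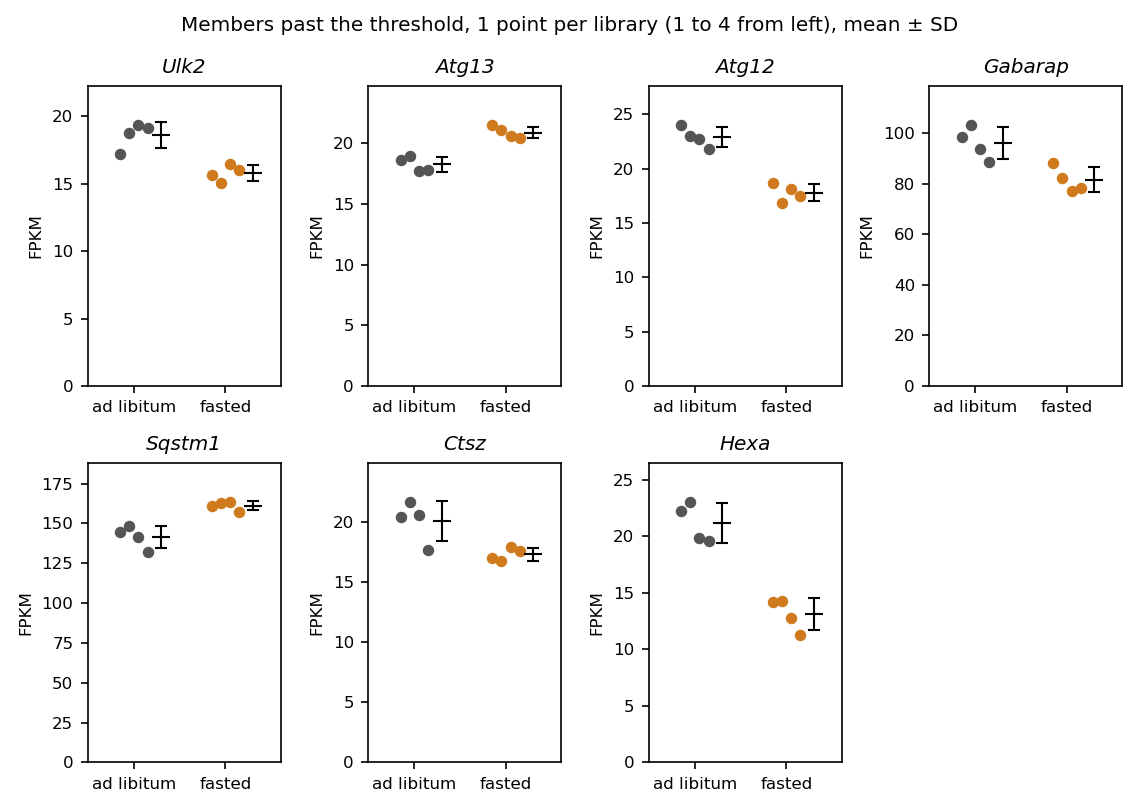
FPKM (y axis, from 0) of the 7 members past the threshold in each library, 4 ad libitum and 4 fasted, with mean and SD. Atg13 and Sqstm1 are higher in fasted cortex and the other 5 lower, Ctsz being the 1 gene whose groups overlap (lowest fed value 17.7, highest fasted value 17.9 FPKM).

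The transcription factors TFEB and TFE3 bind the E-box letters CACGTG, the core of the element by which many lysosomal genes are known. Tfeb was the least abundant member, at 1.75, 1.83, 1.69 and 1.43 FPKM fed and 1.66, 1.64, 1.77 and 1.502 fasted, and had a log2 change of -0.015 (95% interval -0.17 to 0.14). Tfe3 was at 9.86, 10.2, 10.1 and 9.33 FPKM fed and 11.9, 11.4, 10.3 and 10.9 fasted, without overlap, with a log2 change of 0.15 (limma adjusted p = 0.0654, and 0.0418 with the replicate block). The log2 ratio of Tfeb to Tfe3 shifted by -0.17 (exact two-sided permutation p = 0.0857, adjusted p = 0.229 over the 8 pairs).

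RefSeq promoter windows (GRCm38.p6, from 250 bases before to 50 after a start site) were at hand for 37 members, 43 windows in all. The letters CACGTG, which read the same on both strands, stood in a window of 11 of these members (29.7%). Of all 27025 genes with a window 8.09% held them. The 11 were Atg5, Atg7, Atg14, Bnip3, Ctsa, Ctsd, Ctsl, Gaa, Glb1, Lamp1 and Mcoln1. The longer TCACGTG, which overlaps it, stood in windows of 8 members (21.6%, against 4.29% of all genes). GTAAACA, the core bound by FoxO factors, stood in 0 of the 37, against 4.05% of all genes, which says only that these letters are not in these windows. Both were searched on both strands.

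The windows below, cut before any annotated exon, were chosen after the values were seen. They show the E-box letters, in capitals, in 3 lysosomal genes whose changes did not pass, and their absence from the window of Hexa, the member that fell most.
Lamp1, chr8:13158911-13159160, plus strand: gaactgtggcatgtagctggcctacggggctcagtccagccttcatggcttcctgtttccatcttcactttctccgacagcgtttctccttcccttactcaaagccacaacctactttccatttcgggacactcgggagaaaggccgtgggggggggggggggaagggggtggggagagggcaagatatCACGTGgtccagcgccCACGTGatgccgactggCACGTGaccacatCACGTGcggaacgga
Mcoln1, chr8:3500269-3500456, plus strand: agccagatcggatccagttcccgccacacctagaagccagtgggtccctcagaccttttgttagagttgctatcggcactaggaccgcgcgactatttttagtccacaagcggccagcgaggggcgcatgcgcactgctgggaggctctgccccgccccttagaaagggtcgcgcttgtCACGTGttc
Gaa, chr11:119267713-119267886, plus strand: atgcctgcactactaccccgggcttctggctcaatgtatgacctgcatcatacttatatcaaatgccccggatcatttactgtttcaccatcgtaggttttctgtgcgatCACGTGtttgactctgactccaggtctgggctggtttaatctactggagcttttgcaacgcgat
Hexa, chr9:59539290-59539539, plus strand: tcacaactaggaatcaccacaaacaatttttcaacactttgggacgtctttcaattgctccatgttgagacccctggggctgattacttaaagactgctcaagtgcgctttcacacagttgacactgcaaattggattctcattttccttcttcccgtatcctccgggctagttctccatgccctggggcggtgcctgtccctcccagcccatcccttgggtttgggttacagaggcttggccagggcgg

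Lamp1 holds 4 copies, which begin 61, 45, 28 and 15 bases before its start site. Of the 11 members with the letters 0 were called by limma on the deposited values, where 25.8% of all tested genes were. Ctsl and Gaa were called as higher after median-ratio scaling, Gaa with the replicate block, and Ctsl, Gaa and Glb1 with the block and GC and length offsets. In the same settings, in that order, 29.9%, 36.4% and 40.1% of all tested genes were called. Most members called in these settings were not among the 11, which are 29.7% of the 37 members with a window. Ctsl and Gaa were also higher with quantile scaling and with equal-sum scaling over protein-coding genes (29.9% and 28.9% of all tested genes called). Ctsl was also higher with equal-sum scaling (17.1%) and without ad libitum replicate 2 or fasted replicate 4 (19.2% and 21.6%). The median log2 change of the 11 was -0.0060, in a range from -0.11 to 0.19. The 26 members whose windows lack the letters had a median of -0.0090, in a range from -0.66 to 0.23. All 6 called members with a searched window (Hexa, Ctsz, Gabarap, Ulk2, Sqstm1 and Atg13) were among these 26. The other called member, Atg12, lies on chromosome 18 and was not searched.

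**Figure D4:**
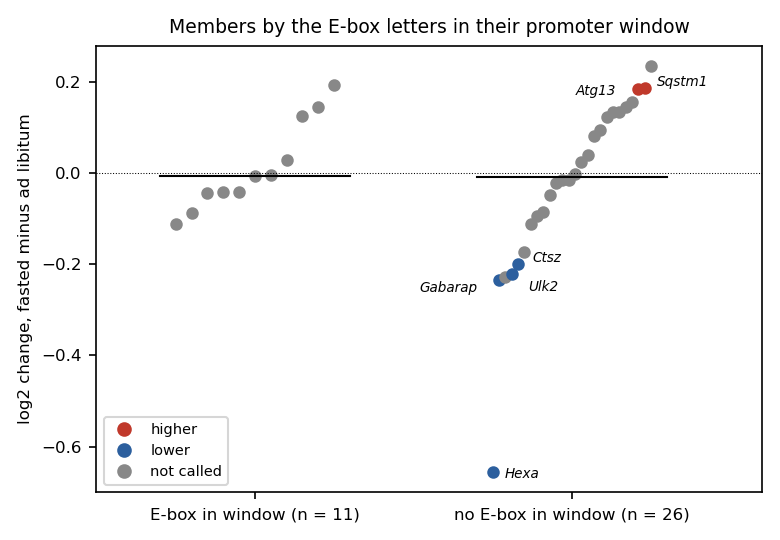
Log2 change (y axis, fasted minus ad libitum) of the 37 members with a RefSeq promoter window, parted by whether the window holds the E-box letters, with a line at each median. The medians are -0.0060 with the letters (11 members) and -0.0090 without (26 members). The 6 members past the threshold that are shown are all in the column without. Atg12, on chromosome 18, was not searched.

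Of the 4 lysosomal membrane genes 0 were called by limma, and 1 (Npc1) had an unadjusted p of under 0.05. Lamp1 and Lamp2 encode the most abundant proteins of the lysosomal membrane, Mcoln1 its calcium channel TRPML1 and Npc1 a cholesterol exporter. Lamp1 was at 127.3, 134.2, 126.8 and 118.0 FPKM fed and 132.9, 123.1, 128.3 and 119.7 fasted. Lamp2 was at 22.2, 23.6, 23.7 and 26.6 FPKM fed and 25.3, 24.1, 23.8 and 22.5 fasted. The 95% intervals of their log2 changes were -0.14 to 0.12 and -0.14 to 0.13, and that of Mcoln1 -0.15 to 0.070. The log2 ratio of Lamp1 to Lamp2 shifted by -0.0025 (exact two-sided permutation p = 1, adjusted p = 1 over the 8 pairs). Npc1 was at 11.2 to 12.2 FPKM fed and 12.4 to 13.5 fasted, without overlap, and did not pass, with a log2 change of 0.12 (limma adjusted p = 0.0979). With GC and length offsets it passed (limma adjusted p = 0.0331, and 0.0373 with the replicate block as well).

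Cathepsins are the lysosome's proteases. Of the 5, Ctsz, which encodes the carboxypeptidase cathepsin Z, fell. It overlaps Nelfcd (9.83 FPKM) on the opposite strand. It was at 20.4, 21.7, 20.5 and 17.7 FPKM fed and 17.0, 16.7, 17.9 and 17.5 fasted, so that ad libitum replicate 4 lay among the fasted libraries. Its log2 change was -0.20 (SE 0.063, limma adjusted p = 0.0359), and the call ended in 10 of 20 alternatives, among them every fit without 1 library except that without ad libitum replicate 4 (limma adjusted p from 0.0552 to 0.102). The fit with GC and length offsets gave limma adjusted p = 0.101.

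Ctsl, which encodes the endopeptidase cathepsin L, was at 35.6, 41.6, 34.4 and 33.5 FPKM fed and 45.5, 39.96, 45.03 and 36.1 fasted. The log2 change of 0.19 did not pass (limma adjusted p = 0.120). Ctsb was at 85.8, 85.0, 82.4 and 74.1 FPKM fed and 86.6, 79.96, 79.2 and 78.9 fasted, a log2 change of -0.011, and Ctsd, at 131.9 FPKM ± 12.2 and 131.2 ± 8.26 (SD, n = 4 each), had one of -0.0056. The log2 ratio of Ctsb to Ctsl shifted by -0.20 (exact two-sided permutation p = 0.0571, adjusted p = 0.229 over the 8 pairs). Ctsa, the protective protein of 2 glycosidases, had a log2 change of 0.028. It overlaps Pltp on the opposite strand, and whether the libraries keep strand is not given in the sources used here. The same limit holds for other members, among them Ctsb with Fdft1 (21.7 FPKM) and Grn with Fam171a2 (16.9 FPKM). Map1lc3b overlaps Zcchc14 (9.42 FPKM), Atg9a Ankzf1 (7.79), Atg4b Thap4 (4.98) and Hexa Tmem202 (0.398), all on the opposite strand.

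The glycosidases cut sugars from glycogen, glycolipids and glycoproteins, and of the 5 only Hexa was called. Hexa (chromosome 9, 59539540 to 59565109, the alpha subunit of beta-hexosaminidase, which degrades the ganglioside GM2) was at 22.2, 23.1, 19.9 and 19.6 FPKM in fed cortex and at 14.2, 14.3, 12.8 and 11.3 FPKM in fasted cortex. The lowest fed library was well above the highest fasted one. It fell by 0.66 on the log2 scale (SE 0.080, 95% interval -0.83 to -0.48, limma adjusted p = 3.41e-04), to 0.618 of the fed mean. It was called in 20 of 20 alternatives, at log2 changes from -0.70 to -0.54 and adjusted p up to 0.00205.

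Gm2a, which encodes the GM2 activator and is named here after its values were seen, did not pass. It was at 13.4 FPKM ± 0.817 fed and 13.2 ± 0.948 fasted (SD, n = 4 each).

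Of the other glycosidases, Gaa, the glycogen-cleaving acid glucosidase, was at 57.1, 63.9, 57.8 and 56.6 FPKM fed and 67.0, 70.9, 64.0 and 59.0 fasted. Its log2 change of 0.14 did not pass (limma adjusted p = 0.130, and 0.0213 with the replicate block). Galc, Glb1 and Neu1, which cleave galactosylceramide, galactosides and sialic acid, were at 5.28 to 9.16 FPKM in the group means. Their log2 changes were 0.040, 0.12 and 0.081, and none passed (limma adjusted p from 0.188 to 0.753).

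The cofactors and carriers of the lysosomal lumen are prosaposin (Psap), the source of the saposins that present lipids to hydrolases, progranulin (Grn) and the cholesterol carrier NPC2. Psap was the most abundant member, at 402.6, 414.5, 382.7 and 345.4 FPKM fed and 449.4, 440.6, 416.2 and 386.8 fasted. Its groups overlapped and the log2 change of 0.13 did not pass (limma adjusted p = 0.214, and 0.0226 with the replicate block). Within each replicate number the fasted library was the higher one. Grn was at 21.0 FPKM ± 2.41 and 21.4 ± 2.46 and Npc2 at 8.88 ± 1.18 and 8.27 ± 0.523 (SD, n = 4 each), with log2 changes of 0.024 and -0.085.

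For the 38 members that did not pass, the intervals bound the change on the deposited values and on the log2(FPKM + 1) scale only. Several of these members passed after other scalings, as given above. In 35 of them the 95% interval lay within 0.32 of 0 on the log2 scale. The exceptions were Atg101, Optn and Ctsl.

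The wider machinery was read from 7 further lists, 168 genes in the table, of which 162 were tested. Of these 18 rose and 15 fell (20.4%, against 25.8% of all tested genes), with a median log2 change of 0.0017. With the replicate block it was 27 and 24 (31.5%, against 36.4% of all tested genes), and after median-ratio scaling 34 and 15 (30.2%, against 29.9%). Of the single lists, 0% of the V-ATPase subunits, 10.8% of other hydrolases and 17.4% of other formation genes were called. It was 22.2% for TFEB regulators, 27.3% for fusion, 33.3% for selective autophagy and 34.5% for lysosomal membrane and sorting. The difference between the lists was not tested.

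Of 22 genes of the fusion of autophagosome and lysosome 5 rose and 1, Arl8b, fell by 0.19 on the log2 scale. Stx17, which encodes the SNARE protein of the autophagosome, rose by 0.49 on the log2 scale, from 3.79 FPKM ± 0.154 to 5.74 ± 0.187 (SD, n = 4 each; limma adjusted p = 2.20e-04). Vps11 and Vps33a, which encode subunits of the tethering complex at the lysosome, rose by 0.33 and 0.21. Of 15 other genes of selective autophagy, receptors and their regulators, 3 rose and 2 fell. The 3 were the adaptor gene Tollip, Tbk1, the kinase that acts on optineurin and p62, and Pink1, the kinase that marks damaged mitochondria, which rose by 0.25, 0.26 and 0.32. The Pink1 call ended without ad libitum replicate 3 (limma adjusted p = 0.0528). The 2 that fell were Tex264 and Ccpg1, by 0.23 and 0.18.

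Of 18 regulators of TFEB at the lysosome 3 rose and 1 fell. The gene that fell was Lamtor5, by 0.36 on the log2 scale (limma adjusted p = 0.0313). The folliculin partners Fnip2 and Fnip1 rose by 0.24 and 0.21, and Rragc, a GTPase that recruits TFEB and mTORC1 to the lysosome, by 0.20. The Fnip1 call ended in 4 of the 8 fits that leave out 1 library, those without ad libitum 2, ad libitum 3, fasted 1 and fasted 3 (limma adjusted p from 0.0640 to 0.0758). The Rragc call ended without ad libitum replicate 2 or fasted replicate 1 (limma adjusted p = 0.0511 and 0.0521). Of 23 other genes of autophagosome formation 2 rose and 2 fell. Uvrag, a Beclin 1 partner, rose by 0.26 and Atg2b by 0.24, while the gene of Rubicon, an inhibitor of autophagy (listed as 1700021K19Rik), fell by 0.22, a call that ended with equal-sum scaling (limma adjusted p = 0.547).

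The 18 subunits of the V-ATPase, the proton pump that acidifies the lysosome, gave 0 calls by limma, and 2 had an unadjusted p of under 0.05. They were Atp6v0a2 and Atp6v0b (log2 changes of -0.15 and -0.26, limma adjusted p = 0.0609 and 0.0681). Atp6v0b passed with the replicate block (limma adjusted p = 0.00186), with median-ratio scaling (0.0326) and with GC and length offsets (0.00702). Atp6v0a2 passed with the offsets (limma adjusted p = 0.0290, and 0.0384 with the block as well). Without ad libitum replicate 4 both passed (limma adjusted p = 0.0324 for Atp6v0a2 and 0.00272 for Atp6v0b). Of 37 other lysosomal hydrolases 2 rose and 2 fell. Lipa, the acid lipase that cleaves cholesteryl esters, fell by 0.35 and the peptidase gene Tpp1 by 0.27, while Ctsk rose by 0.48, from 1.85 to 2.96 FPKM. Of 29 other genes of the lysosomal membrane and of sorting 3 rose and 7 fell, among them the adaptor gene Gga3 and Mfsd8, which fell by 0.29 and 0.31. Cd68, a lysosomal membrane protein of phagocytes, rose by 0.39. The calls of Lipa, Tpp1, Gga3 and Mfsd8 ended with equal-sum scaling (limma adjusted p = 0.106, 0.348, 0.282 and 0.179).

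**Figure D5:**
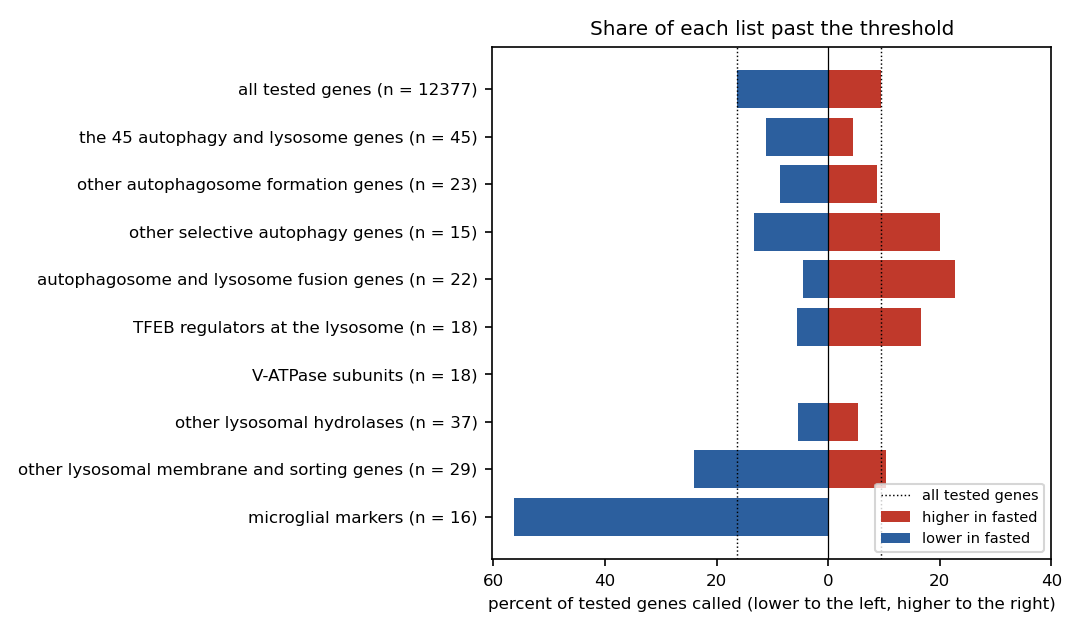
Percent of tested genes called as higher (right) or lower (left) in fasted cortex for the 45 members, 7 wider lists and the microglial markers, with dotted lines at the shares of all tested genes (9.56% higher, 16.3% lower). The V-ATPase subunits have no bar, and 9 of 16 microglial markers were called as lower.

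Several lysosomal genes are known to be abundant in microglia, and the markers of this cell type moved with the groups. Of 16 microglial markers 9 fell and 0 rose, where 16.3% of all tested genes were called as lower and 9.56% as higher. Among those that fell were P2ry12, Fcrls and Olfml3. The summed level of the 16 markers was 148.3 to 208.5 FPKM in fed and 125.5 to 144.0 FPKM in fasted libraries. Their part in the falls of Hexa and Ctsz was not tested, while Grn and Npc2 did not pass and Cd68 rose. In a tissue homogenate fewer cells of a type and less RNA per cell cannot be told apart. Of the other lists, 4 of 10 endothelial and mural markers fell (61.9 to 69.9 FPKM summed in fasted, 76.3 to 91.2 in fed libraries), and 4 of 8 markers of oligodendrocyte precursors. Of 12 astrocyte markers 2 rose and 4 fell, of 12 oligodendrocyte markers 2 rose and 2 fell, and excitatory neurons had 1 of 10 markers higher and 4 lower. For inhibitory neurons 0 of 10 were called by limma and 1 had an unadjusted p of under 0.05. The excitatory neuron markers, which check the labelled tissue, summed to 1717 to 2145 FPKM in fed and 1756 to 2029 FPKM in fasted libraries, and none was at 0. Of 10 markers of perivascular macrophages and blood 1 passed the filter on low values and was not called.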

How the data were processed

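RNA-seq of 8 libraries of mouse occipital cortex was analysed, 4 ad libitum and 4 fasted. The deposited table holds values read here as FPKM. Its header does not name the unit, and steps of whole fragments in FPKM times transcript length were found in 4105 genes with a single transcript. Reads were mapped with TopHat to mm10, per the submitters' processing notes. For the annotation, the counter and the strand setting no source used here names one. Depth was estimated from those steps, since the table holds no counts.

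Values were taken as log2(FPKM + 1), a scale that shrinks the fold changes of low genes. Genes with at least 1 FPKM in at least 4 libraries were tested with limma 3.58.1 in R 4.3.3 (trend and robust variance), with group as the 1 term and Benjamini-Hochberg adjustment over all 12377 tested genes. The threshold was an adjusted p of 0.05. Pairs of related members were compared by log2 ratio with exact two-sided permutation tests (70 assignments), adjusted over the 8 pairs. The fitting code was tested on simulated data in which 200 of 12377 genes were changed. There it recovered 20.5% of changes of 1.2-fold and 91% of changes of 1.5-fold. In the data 3198 of 12377 genes were called, and the adjusted threshold depends on how many genes change. These shares therefore check the code and do not carry over to this comparison. Python 3.11.15 was used for the rest.

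The members and lists were chosen with earlier results of these data known. Every member was named. Up to 3 genes with the smallest p were named from each wider list, and from the markers only for microglia. Of the marker lists the others were given by counts. The printed promoter windows and Gm2a were chosen after values were seen. So were Lamtor5, Arl8b, Tex264 and Ccpg1, which are given from the main fit only. Promoters came from RefSeq (GRCm38.p6), without those on chromosome 18, and gene coordinates from the GENCODE annotation of GRCm38. Of the wider lists 5 genes were matched by older symbols.

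The groups share replicate numbers. Deviations from the group means correlated between libraries of the same number at 0.574, 0.496, 0.382 and 0.523 over all tested genes. The numbers were therefore taken as a possible pairing of the libraries. It entered only the alternatives with the block and the sign-flip test. The main fit and the permutation tests over 70 assignments left it out. This pairing was read from the data, not from a label, and sex-linked genes take part in it. Between different numbers the highest was 0.381 (1 with 3). Over autosomal protein-coding genes the same-number values were 0.335, 0.193, 0.076 and 0.371, and the highest between different numbers was 0.227 (ad libitum 2 with fasted 1), so the pairing is weaker there. Alternatives covered scaling, filter, pseudocount, GC and length offsets, the block and leaving out each library.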

Additional observations from a re-analysis of the deposited data

Results flagged for a closer look

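In 4 of 90 groups of 4 libraries (45 members in 2 groups), 1 library lay apart from the other 3 by more of the group's range than Dixon's 95% value allows. Chance gives about 1 in 20 such groups. Atg5 was at 5.66 FPKM in ad libitum replicate 3 and at 6.09 to 6.12 in the others. Gabarapl2 was at 67.1 FPKM in fasted replicate 4 and at 77.9 to 78.7 in the others. Ctsb was at 86.6 FPKM in fasted replicate 1 and at 78.9 to 79.96 in the others. Gaa was at 63.9 FPKM in ad libitum replicate 2 and at 56.6 to 57.8 in the others. None of these 4 genes was called on the deposited values.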

How the results depend on the processing

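Hexa was called in all 20 alternatives, and the other 6 called members kept their direction in each of them. Members called as higher, 2 on the deposited values, came to 11 with median-ratio, 11 with quantile and 5 with equal-sum scaling, 10 with GC and length offsets, 9 with the replicate block and 13 with the block and the offsets. Members called as lower, 5 on the deposited values, came to 1 with equal-sum scaling and 8 with the replicate block. Equal-sum scaling over protein-coding genes, added after seeing the data, gave 11 higher and 6 lower, and kept all 7 member calls made on the deposited values. Of the wider lists 34 genes were higher with median-ratio and 33 with quantile scaling, 39 with the offsets, 44 with the block and the offsets and 33 with equal-sum scaling over protein-coding genes. In those lists 1 was lower with equal-sum scaling and 24 with the replicate block. Of all tested genes 1792 were higher with quantile scaling, 1976 with the offsets and 2491 with the block and the offsets, and 532 were lower with equal-sum scaling. With the replicate block 1773 were higher and 2733 lower. Leaving out 1 library gave 0 to 4 members higher and 3 to 10 lower, and 11 to 18 genes of the wider lists higher and 8 to 27 lower. The log2 ratio shifts then ran from -0.083 to 0.036 for Lamp1 to Lamp2, from -0.072 to 0.017 for Map1lc3a to Map1lc3b and from -0.023 to 0.095 for Bnip3 to Bnip3l. With these group sizes a single pair cannot pass the adjustment over 8, so the pairs' p-values say nothing about stability. The cause of these differences was not tested.

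Some members near 0 changed sign, none past the threshold. With GC and length offsets, with or without the replicate block, log2 changes were Gabarapl1 0.039, Nbr1 0.00050, Bnip3 0.059, Lamp1 0.036, Lamp2 0.065, Ctsb 0.0028 and Ctsd 0.029. With equal-sum scaling they were Atg14 0.057, Atg2a 0.060, Atg7 0.019, Map1lc3b 0.013, Gabarapl1 0.11, Gabarapl2 0.031, Nbr1 0.11, Bnip3 0.079, Bnip3l 0.046, Tfeb 0.065, Lamp1 0.12, Lamp2 0.12, Mcoln1 0.080, Ctsb 0.11, Ctsd 0.12 and Npc2 0.029. With median-ratio scaling they were Gabarapl1 0.0082, Nbr1 0.012, Tfeb 0.0040, Lamp1 0.023, Lamp2 0.025, Ctsb 0.019 and Ctsd 0.024, and with equal-sum scaling over protein-coding genes Gabarapl1 0.0083, Nbr1 0.012, Tfeb 0.0043, Lamp1 0.023, Lamp2 0.025, Ctsb 0.019 and Ctsd 0.024. With quantile scaling they were Gabarapl1 0.0088, Nbr1 0.0091, Bnip3 0.0034, Tfeb 0.032, Lamp1 0.059, Lamp2 0.022, Ctsb 0.023 and Ctsd 0.056. Leaving out 1 library gave ranges of -0.0024 to 0.077 for Rb1cc1, -0.076 to 0.0032 for Atg14, -0.069 to 0.0076 for Gabarapl1, -0.045 to 0.012 for Nbr1, -0.087 to 0.0029 for Bnip3, -0.060 to 0.012 for Tfeb, -0.039 to 0.022 for Lamp1, -0.039 to 0.044 for Lamp2, -0.013 to 0.085 for Ctsa, -0.057 to 0.013 for Ctsb, -0.062 to 0.043 for Ctsd, -0.022 to 0.11 for Galc and -0.041 to 0.092 for Grn. The cause was not tested.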

Other observations

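Over the 45 members the log2 change correlated with log2 transcript length at r = 0.345, against 0.099 over 11909 tested genes with a length. With GC content the values were -0.0010 and 0.067. These are correlations across genes, which share the same 8 libraries and are not independent replicates.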
